A study of Mus musculus with 13 samples.

Results

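The lamin genes *Lmna*, *Lmnb1* and *Lmnb2* and the genes of the enzymes that process prelamin A, *Fnta*, *Fntb*, *Rce1*, *Zmpste24* and *Icmt*, were followed in parametrial white adipose tissue (pmWAT). They were chosen by name for their place in 1 pathway, with earlier results of these data known. All 8 were among the 33618 genes of the count table. One mRNA library per mouse was made from whole pmWAT of 7 *Lmna* fl/fl and 6 *Lmna* iADKO mice. Every mouse, control or not, was female, carried loxP sites around exons 10 and 11 of both *Lmna* alleles, and received tamoxifen at 50 mg/kg on 5 days at 12 to 14 weeks of age, and pmWAT was taken 2 weeks later. The iADKO mice also carried Adipoq-CreERT2, a tamoxifen-activated Cre recombinase under the adiponectin promoter, which is active in adipocytes, so the other cells of the tissue were not targeted. Since the fl/fl mice had no Cre, an effect of Cre itself and an effect of the deletion cannot be told apart. Between 18854223 and 19776491 reads per library were counted on genes.

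Lamins are intermediate filament proteins that line the inner face of the nuclear membrane. *Lmna* gives prelamin A and, from a shorter transcript, lamin C, while *Lmnb1* and *Lmnb2* give the B-type lamins. Prelamin A and the B-type lamins end in a CaaX motif, whose cysteine receives a farnesyl lipid from farnesyltransferase, the dimer of the *Fnta* and *Fntb* products. The last residues are then cut off, by RCE1 or, on prelamin A, also by ZMPSTE24, and ICMT methylates the exposed cysteine. B-type lamins keep the lipid, whereas ZMPSTE24 cuts prelamin A again and releases mature lamin A without it. In people, *LMNA* mutations cause familial partial lipodystrophy, in which fat depots are lost.

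The coding part of *Lmna* exon 12 is shown because it holds the CaaX codons on which farnesyltransferase, RCE1 and ICMT act. It was read on the minus strand of GRCm39 (the build named mm39 by the study), 5′ to 3′, with exon limits from GENCODE vM39. Capitals mark the 4 CaaX codons. The last 8 codons of *Lmnb2* are given for comparison, from a 596-codon transcript that ends in CaaX codons, also in capitals.
*Lmna* exon 12, coding part, chr3:88389384-88389407: agctcccagaacTGCAGCATCATG
*Lmnb2* last coding part, chr10:80738696-80738719: acctcaaggggcTGCCGACTGATG

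*Lmna* (ENSMUSG00000028063) lies at chr3:88387454-88417299, and its canonical transcript has 12 exons and 665 codons. The floxed exons hold 121 of those codons and 363 bases, which is 10.6% of the 3435-base transcript. The cut by ZMPSTE24 falls after codon 647, within exon 11. The CaaX codons lie in exon 12, outside the floxed stretch. Joining exon 9 to exon 12 on paper gave an open frame of 544 codons with 0 stops and the same 4 last codons, so that the frame kept the CaaX codons and lost the ZMPSTE24 site. A lamin C transcript of 2328 bases held 96 of the floxed bases, all from exon 10. The last 24 coding bases of *Lmna* and of the *Lmnb2* transcript chosen for its CaaX ending had the same base at 14 places.

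**Figure D1:**
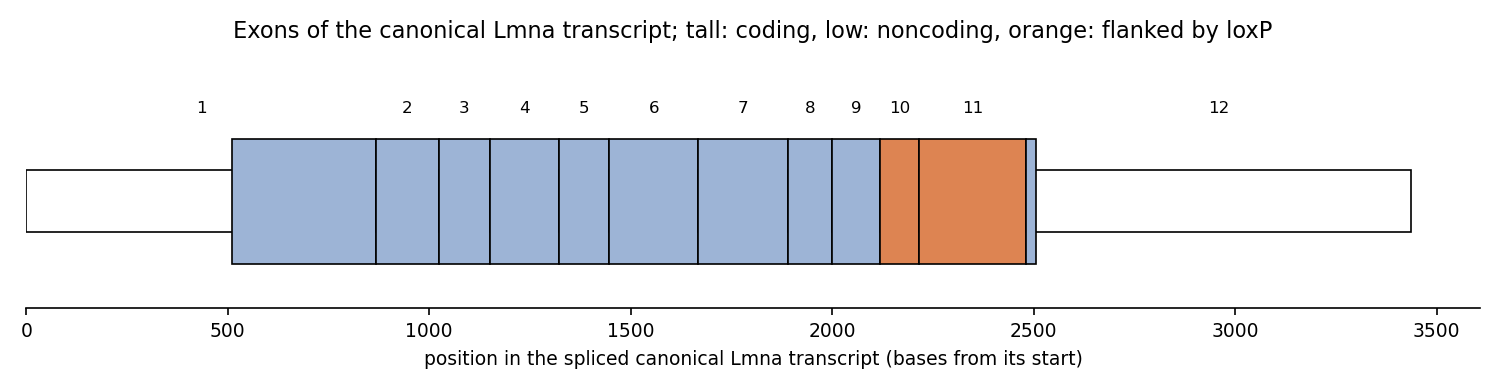
Exons of the canonical *Lmna* transcript drawn to scale along the spliced message, in bases from its start, with coding parts tall, noncoding parts low and the floxed exons 10 and 11 in orange. The floxed exons make up 363 of 3435 bases, and the coding end in exon 12 lies after them.

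In 5 of 6 iADKO mice, *Lmna* message lay above the fl/fl mean. Levels are given as CPM, counts scaled to a common library size after TMM normalization, which sets each library against the bulk of its genes. In fl/fl mice *Lmna* was at 74.7 CPM in the lowest mouse, 83.5 in the median mouse and 98.5 in the highest, and in iADKO mice at 80.1, 96.8 and 109 CPM. The ranges overlapped, and 3 of the 6 iADKO mice lay above every fl/fl mouse. The fl/fl mean was 84.7 ± 7.51 CPM (SD, n = 7) and the iADKO mean 96.7 ± 11.5 CPM (SD, n = 6). On the log2 scale they differed by 0.19 (95% interval 0.04 to 0.35, by a normal approximation from the standard error). The difference missed the threshold of 0.05 in edgeR's quasi-likelihood test with Benjamini-Hochberg adjustment over 16753 genes (adjusted p = 0.0785). It passed without fl/fl replicate 1 (adjusted p = 0.0411), without iADKO replicate 6 (0.0208) and when counts were scaled by library totals alone (log2 fold change 0.40, adjusted p = 0.00101). Reads on the whole gene were counted together, so reads outside exons 10 and 11, which carry no check of the deletion, cannot be told apart from reads within them. Directions below therefore rest on the labels. In whole tissue, fewer cells of a type and less RNA per cell cannot be told apart either.

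*Lmnb1* (ENSMUSG00000024590), which encodes lamin B1, rose in iADKO pmWAT. Its levels in fl/fl mice were 12.3 CPM at the lowest, 13.6 at the median and 15.2 at the highest, against 15.9, 16.9 and 20.3 CPM in iADKO mice. All 6 iADKO mice lay above all 7 fl/fl mice, and *Lmnb1* was the 1 gene of the 8 whose groups did not overlap, a separation found for 6.64% of all genes tested. The mean went from 13.6 ± 0.933 CPM (SD, n = 7) to 17.3 ± 1.56 CPM (SD, n = 6), a 1.27-fold level, or 0.35 on the log2 scale with a standard error of 0.069 (edgeR adjusted p = 0.00252). An exact two-sided permutation test over the mice gave p = 0.00117, where the smallest possible value is 0.000583. When libraries were blocked by runs of neighbouring library numbers, the log2 fold change was 0.45 and the adjusted p 0.0597.

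*Lmnb2* (ENSMUSG00000062075, chr10:80737037-80754110), which encodes lamin B2, did not pass the threshold. It was at 11.5, 12.6 and 12.99 CPM in the lowest, median and highest fl/fl mouse and at 12.0, 13.6 and 16.8 CPM in iADKO. The 2 groups overlapped, with 4 of 6 iADKO mice above the highest fl/fl mouse. The log2 fold change was 0.18 with a standard error of 0.076 (edgeR adjusted p = 0.0787), and it was past the threshold only when counts were scaled by library totals or when iADKO replicate 6 was left out (adjusted p = 0.0315). The 95% interval was 0.04 to 0.33.

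**Figure D2:**
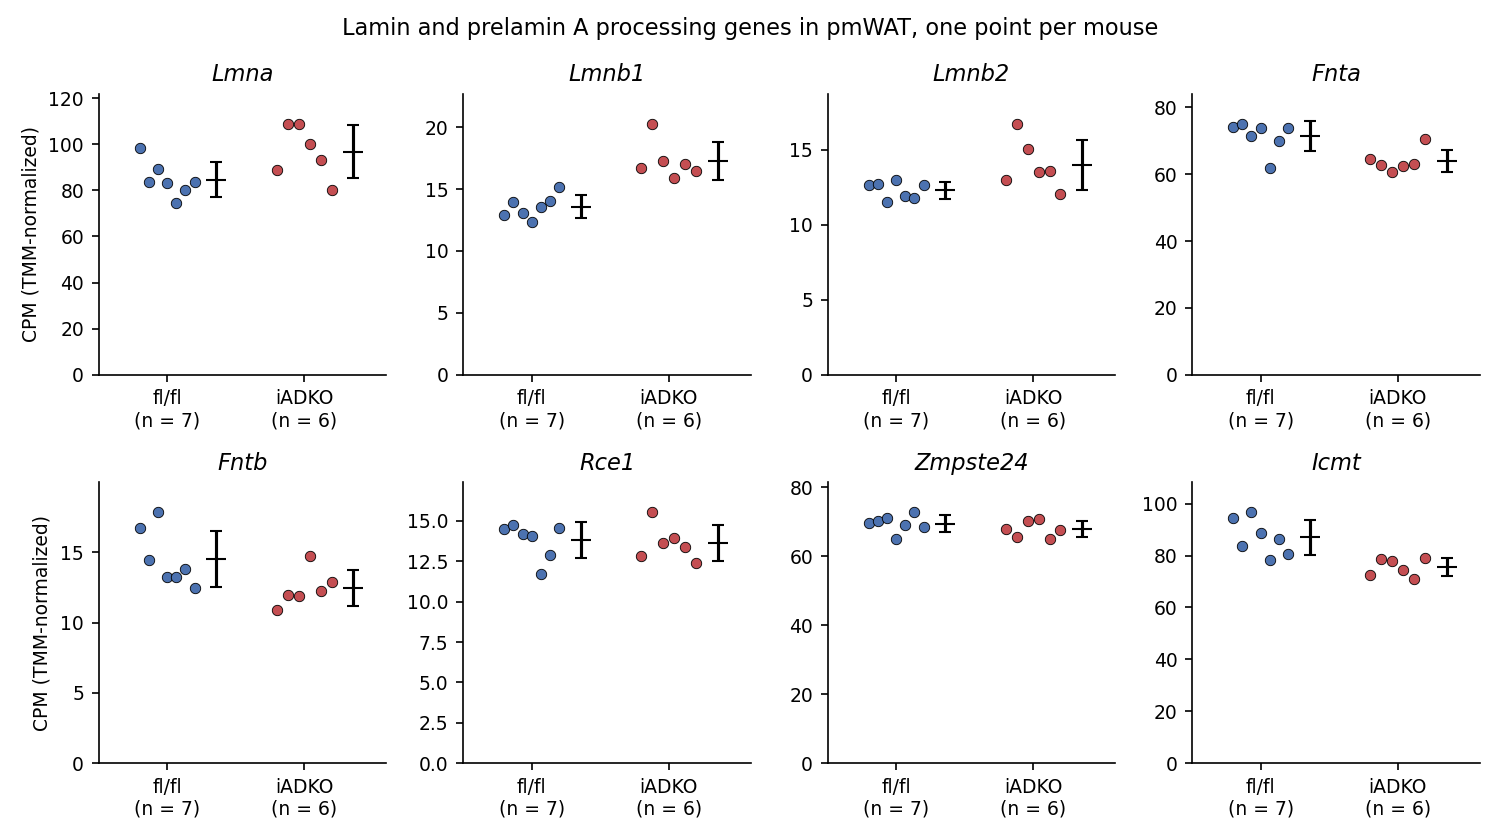
TMM-normalized CPM of the 8 genes (y axes, each from 0) by genotype, with 1 point per mouse and bars for the mean ± SD beside the points (fl/fl n = 7, iADKO n = 6). *Lmnb1* is the gene whose 2 groups do not overlap, and *Icmt* overlaps through the lowest fl/fl mouse, which lies below the highest of the iADKO mice.

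Both farnesyltransferase subunit genes had lower means in iADKO under TMM, and only *Fnta* passed the test. *Fnta* (ENSMUSG00000015994, chr8:26484643-26505678), whose product is the alpha subunit, shared with a related enzyme that attaches a longer lipid, was at 61.9, 73.8 and 75.1 CPM in the lowest, median and highest fl/fl mouse. In iADKO it was at 60.7, 62.9 and 70.4 CPM, so the groups overlapped, and 5 of 7 fl/fl mice lay above every iADKO mouse. Its mean fell from 71.5 ± 4.6 CPM (SD, n = 7) to 64.0 ± 3.39 CPM (SD, n = 6), or -0.16 on the log2 scale with a standard error of 0.053 (edgeR adjusted p = 0.0335), which became 0.04 (adjusted p = 0.402) with library totals alone. This call was kept in 3 of 13 fits that each left out a mouse, those without fl/fl replicate 5, fl/fl replicate 6 or iADKO replicate 6, and lost without any of the other 10 (adjusted p of all 13 between 0.00404 and 0.0749). Of the 3 calls among the 8 genes, that of *Fnta* was lost in the most of these fits.

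*Fntb* (ENSMUSG00000033373, chr12:76812250-76968186) encodes the beta subunit, which binds the CaaX protein. Its levels were 12.5, 13.8 and 17.9 CPM in the lowest, median and highest fl/fl mouse and 10.9, 12.1 and 14.7 CPM in iADKO. The groups overlapped, with 4 of 6 iADKO mice below every fl/fl mouse. The log2 fold change of -0.22 had the largest standard error of the 8 genes, 0.096, and the edgeR adjusted p was 0.0891. Its spread between fl/fl mice was also the widest, at 13.8% of the mean.

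*Icmt* (ENSMUSG00000039662, chr4:152381628-152391585) encodes the methyltransferase of the last shared step, and it had the lowest p among the processing enzymes. In fl/fl mice it was at 78.5, 86.5 and 96.7 CPM in the lowest, median and highest mouse, and in iADKO mice at 70.8, 76.1 and 79.0 CPM. The overlap came from 1 mouse, fl/fl replicate 5, and the other 6 fl/fl mice lay above every iADKO mouse. The mean fell from 87.0 ± 6.82 CPM (SD, n = 7) to 75.5 ± 3.51 CPM (SD, n = 6), 0.867 times the fl/fl level, with a log2 fold change of -0.21 and a standard error of 0.056 (edgeR adjusted p = 0.0135), which was 0.00 (adjusted p = 0.998) with library totals alone. The exact two-sided permutation test gave p = 0.00466. *Icmt* stayed past the threshold in all 13 fits that left out a mouse (adjusted p between 0.00489 and 0.0388), and not with the runs of library numbers as a block (adjusted p = 0.23).

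The genes of both CaaX proteases were close to their fl/fl level. *Zmpste24* (ENSMUSG00000043207, chr4:120916433-120955459) was at 65.0, 69.8 and 72.8 CPM in the lowest, median and highest fl/fl mouse and at 65.0, 67.9 and 71.0 CPM in iADKO, nearly the same range. Its log2 fold change of -0.03 had a 95% interval from -0.11 to 0.05, the narrowest of the 8 (edgeR adjusted p = 0.552), and became 0.17 (adjusted p = 0.00558) with library totals alone. *Rce1* (ENSMUSG00000024889, chr19:4671795-4675699), at 11.7, 14.2 and 14.8 CPM in fl/fl and 12.4, 13.5 and 15.5 CPM in iADKO, also overlapped throughout. Its log2 fold change of -0.02 (95% interval -0.16 to 0.12, edgeR adjusted p = 0.859) became 0.19 (adjusted p = 0.0352) with library totals alone.

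Over the 8 genes, 1 was called higher and 2 lower, 3 in all. Of the 16753 genes tested, 5104 were called (30.5%), 2367 higher (14.1%) and 2737 lower (16.3%). A count of 3 in 8 is near that background and is not itself a result about these genes. Their median log2 fold change was -0.03, against 0.03 for all genes. The largest change, that of *Lmnb1*, exceeded in size the change of 69.9% of the genes tested, while those of *Rce1* and *Zmpste24* exceeded 5.24% and 9.38%. The 3 lamin genes had positive and the 5 enzyme genes negative log2 fold changes under TMM, an order that library totals alone turned for *Fnta*, *Zmpste24* and *Rce1*.

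The TMM factors were 0.892 to 1.02 in fl/fl and 1.05 to 1.10 in iADKO, so the scaling differed by genotype. With library totals alone the median of all genes moved from 0.03 to 0.24 on the log2 scale and 7397 of 8673 called genes were higher. Relative to the median of all genes, each of the 8 moved by less than 0.01. A change of scaling moves all genes of a library alike, so this was largely set in advance and is no test of the calls. *Lmnb1* lay 0.31 above that median under TMM and 0.32 above it with library totals. *Icmt* lay at -0.24 under both, *Fnta* at -0.19 under both, *Zmpste24* at -0.07 under both and *Lmna* at 0.16 under both. A change in total mRNA per tissue was not measured, and the direction of *Fnta*, *Icmt*, *Zmpste24* and *Rce1* is therefore given relative to the other genes.

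**Figure D3:**
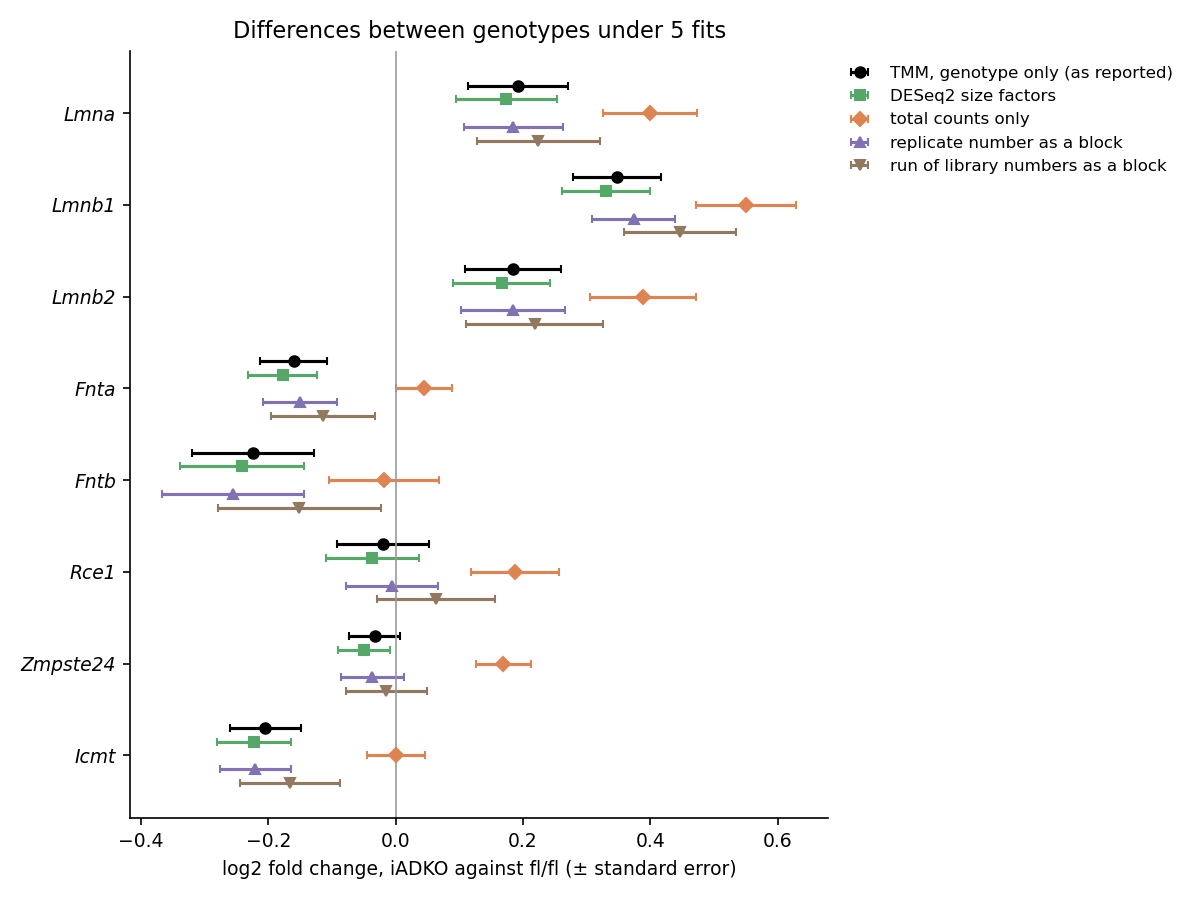
Log2 fold changes of iADKO against fl/fl (x axis) with standard errors for the 8 genes, under TMM and under 4 other fits named in the key. The lamin genes stay above 0 in each of the 5, while library totals alone (diamonds) move every gene to the right and bring *Icmt* to 0.00 and *Fnta*, *Rce1* and *Zmpste24* above 0.

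Library names carry numbers that fall into runs, of which 2 held both genotypes. Among libraries 722 to 727 (2 fl/fl and 2 iADKO), the difference in mean log2 CPM was 0.32 for *Lmnb1*, -0.12 for *Icmt* and -0.03 for *Fnta*. Among libraries 747 to 750 (3 fl/fl and 1 iADKO), it was 0.61, -0.22 and -0.23. The 1 iADKO library of that run, 748, was replicate 2, whose *Lmnb1* level lay apart above the other iADKO mice. *Lmnb1* was thus higher and *Icmt* lower in iADKO within both runs, with too few mice for a test. *Lmna* differed by 0.18 and 0.27, *Lmnb2* by 0.04 and 0.44, *Fntb* by 0.06 and -0.44, *Zmpste24* by 0.05 and -0.10, and *Rce1* by 0.04 and 0.10. *Fntb* and *Zmpste24* thus had opposite signs in the 2 runs. The labels give these numbers no meaning beyond the library name, and the other 3 runs held 1 genotype each. With the run as a block, 54 genes were called in all, none of them among the 8 genes or the lists described below, by edgeR.

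Per length of message, *Icmt* and *Lmna* led in fl/fl and the B-type lamins were among the lowest. Levels between genes are given as CPM per kb of the exons of each gene. In fl/fl they were 13.9 ± 1.09 for *Icmt*, 13.7 ± 1.21 for *Lmna*, 11.1 ± 0.714 for *Fnta* and 9.25 ± 0.330 for *Zmpste24* (SD, n = 7). *Icmt* and *Lmna* overlapped over the mice, as did *Fnta* and *Zmpste24*. *Rce1* at 3.87 ± 0.312, *Lmnb1* at 3.76 ± 0.258 and *Fntb* at 3.55 ± 0.489 also overlapped, and *Lmnb2* at 2.69 ± 0.125 CPM per kb lay below all of them without overlap.

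In iADKO the order changed at the top and in the lower group. *Lmna* at 15.6 ± 1.85 CPM per kb (SD, n = 6) now lay above *Icmt* at 12.1 ± 0.559 without overlap, and *Fnta* at 9.94 ± 0.526 still overlapped *Zmpste24* at 9.04 ± 0.315. *Lmnb1* at 4.79 ± 0.431 lay above *Rce1* at 3.82 ± 0.303 without overlap, and *Lmnb2* at 3.06 ± 0.365 overlapped *Fntb* at 3.03 ± 0.315. The order depends on the length used. Per kb of the canonical transcript, *Fnta* came first in both genotypes, at 37.0 CPM per kb in fl/fl against 24.7 for *Lmna*, and *Icmt* fell behind *Zmpste24*, at 17.7 against 20.2.

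Ratios within a mouse do not depend on the library scaling. For 4 of the 5 enzyme genes, the ratio to *Lmna* was lower in 5 of 6 iADKO mice than in any fl/fl mouse. This count is given without its share over all genes, and *Lmna* itself had a higher mean in iADKO. The ratio of *Icmt* to *Lmna* per kb was 1.02 ± 0.0517 (SD, n = 7) in fl/fl, from 0.950 to 1.07, and 0.781 ± 0.101 (SD, n = 6) in iADKO, from 0.707 to 0.975. *Fnta* to *Lmna* went from 0.815 ± 0.0525 to 0.647 ± 0.114, *Fntb* to *Lmna* from 0.259 ± 0.0238 to 0.197 ± 0.0311 and *Rce1* to *Lmna* from 0.283 ± 0.0183 to 0.246 ± 0.0169. For each of the 4 ratios, iADKO replicate 6 was the mouse that stayed within the fl/fl range. *Zmpste24* to *Lmna* was 0.681 ± 0.0618 in fl/fl and 0.586 ± 0.0711 in iADKO, with 4 of 6 iADKO mice below every fl/fl mouse. These ratios share *Lmna* as their denominator and are given without a test. *Lmna* lay 0.16 above the median of all genes on the log2 scale under TMM. A lower ratio therefore need not mean a lower enzyme level, and *Rce1* itself had a log2 fold change of -0.02. How many of all genes fell as far relative to *Lmna* was not counted.

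Among the lamin messages, the mean of *Lmnb1* relative to *Lmna* was higher in iADKO and that of *Lmnb2* was nearly the same. *Lmna* was counted over the whole gene, so these ratios do not give the balance of messages that keep the floxed exons. *Lmnb1* to *Lmna* was 0.277 ± 0.0343 per kb in fl/fl (SD, n = 7) and 0.309 ± 0.0315 in iADKO (SD, n = 6), with 4 of 6 iADKO mice above the fl/fl range. *Lmnb2* to *Lmna* was 0.198 ± 0.0171 and 0.196 ± 0.00965, within the same range. *Lmna* made up 67.9% ± 2.26 (SD, n = 7) of the summed lamin level per kb in fl/fl and 66.5% ± 1.78 (SD, n = 6) in iADKO. The size of this share depends on the gene lengths used. The subunit ratio *Fnta* to *Fntb* was 3.18 ± 0.424 in fl/fl and 3.30 ± 0.351 in iADKO, and the 2 groups overlapped.

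**Figure D4:**
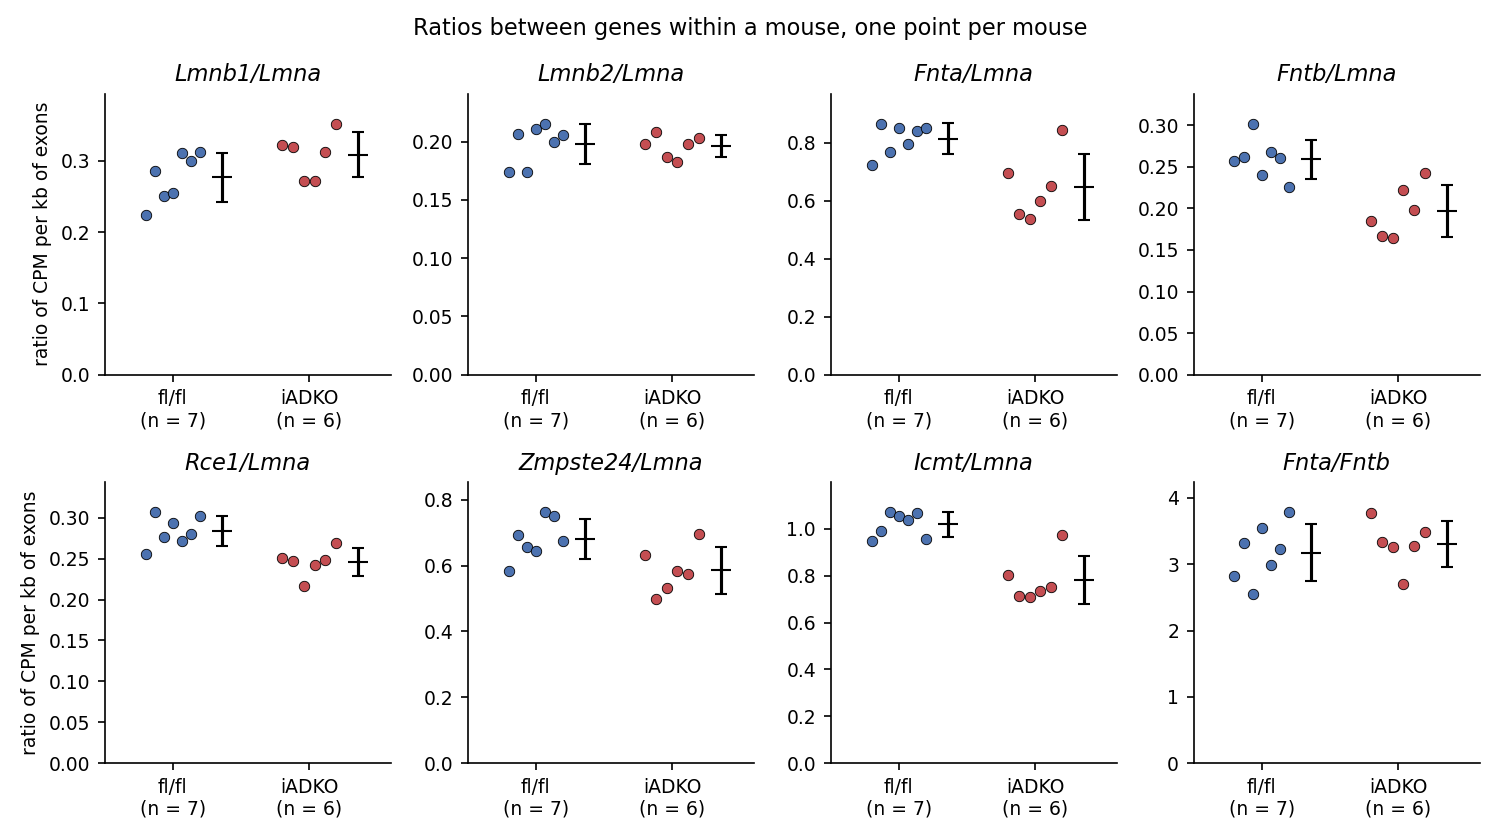
Ratios of CPM per kb of exons between genes of the same mouse (y axes, each from 0) by genotype, with 1 point per mouse and bars for the mean ± SD (fl/fl n = 7, iADKO n = 6). For *Fnta*, *Fntb*, *Rce1* and *Icmt* over *Lmna*, 5 of 6 iADKO points lie below all fl/fl points, whereas *Lmnb2* over *Lmna* and *Fnta* over *Fntb* overlap. The ratios over *Lmna* share a denominator whose mean is higher in iADKO, and the share of all genes with such a pattern was not counted.

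The farnesyl lipid is made from acetyl-CoA through the mevalonate pathway, and is also drawn into sterols and longer lipids. Of 9 genes for its synthesis or use followed here, 6 were called lower under TMM, beside 16.3% of all genes. Of these 6, 4 were for synthesis and 2 for use. The list does not cover every step of the pathway. Its median log2 fold change was -0.71 against 0.03 for all genes, and was -0.47 without fl/fl replicate 2. With library totals alone the median was -0.50 against 0.24, and 5 of the 9 were called lower, beside 7.62% of all genes. *Pmvk*, phosphomevalonate kinase, fell from 43.7 ± 11.9 CPM (SD, n = 7) to 20.2 ± 3.08 CPM (SD, n = 6), or -1.11 on the log2 scale (edgeR adjusted p = 0.00122). *Acat2*, which makes acetoacetyl-CoA, *Idi1*, isopentenyl diphosphate isomerase, and *Mvk*, mevalonate kinase, had log2 fold changes of -0.94, -0.77 and -0.52. *Fdft1*, squalene synthase, which draws farnesyl diphosphate into sterols, fell from 110.0 ± 11.8 to 66.6 ± 19.4 CPM (log2 fold change -0.73, edgeR adjusted p = 0.00284).

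*Ggps1*, which extends farnesyl diphosphate to the longer lipid, fell by 0.32 on the log2 scale (edgeR adjusted p = 0.0148) and was not called with library totals alone (adjusted p = 0.243). The genes of the synthases *Hmgcs1* and *Fdps* and the decarboxylase *Mvd* were not called. *Hmgcs1* was at 134.9 and 137 CPM in fl/fl and iADKO, with a log2 fold change of 0.02 and a standard error of 0.10. *Fdps* was counted at only 0.742 and 0.776 CPM, and its log2 fold change of 0.06 had a standard error of 0.33, so that a change of that size could not be resolved. *Mvd* had a log2 fold change of -0.71 with a standard error of 0.26, just short of the threshold (edgeR adjusted p = 0.0504).

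Of 8 other genes of protein prenylation, 2 were called lower and none higher by edgeR under TMM (median log2 fold change 0.02). Beside them, 16.3% of all genes were called lower and 14.1% higher, so the count is not itself a result about these genes. With a mouse left out, 1 or 2 of the 8 were called lower. *Chml*, an escort protein for Rab prenylation, was at -0.38 on the log2 scale (edgeR adjusted p = 0.0115) and *Pcyox1*, which degrades prenylcysteine, at -0.21 (adjusted p = 0.0325), and both lost the call with library totals alone (adjusted p = 0.142 and 0.98). With library totals alone, 6 of the 8 were called higher and 0 lower, in a fit that called 44.2% of all genes higher and 7.62% lower. Highest of the 8 under TMM was *Rabggtb*, a subunit gene of the Rab prenyltransferase, at 0.14 on the log2 scale (edgeR adjusted p = 0.183). With library totals alone it was at 0.34 (adjusted p = 0.00187).

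Of 14 genes for lamin partners at the nuclear envelope, 3 were called higher and 3 lower under TMM, beside 14.1% and 16.3% of all genes, which is not itself a result about the list. In the fits that left out a mouse, 2 or 3 were higher and 1 to 5 lower, the 1 without iADKO replicate 4 and the 5 without fl/fl replicate 5 or iADKO replicate 6. *Emd*, which encodes emerin, rose from 31.6 ± 2.02 CPM (SD, n = 7) to 37.9 ± 2.47 CPM (SD, n = 6), by 0.26 on the log2 scale (edgeR adjusted p = 0.00368). *Lbr*, the lamin B receptor gene, and *Tmpo*, the gene for the LAP2 proteins, had log2 fold changes of 0.22 (adjusted p = 0.00781) and 0.19 (adjusted p = 0.0309) in the same fit, and these 3 were also higher with library totals alone. *Narf*, whose product binds the prenylated tail of prelamin A, was at -0.27 on the log2 scale (adjusted p = 0.00707), which was -0.06 with library totals alone. *Sun1* and *Tor1aip1*, genes for inner nuclear membrane proteins, had log2 fold changes of -0.19 and -0.13 under TMM and of 0.01 and 0.07 with library totals alone. No gene of this list was called lower with library totals alone, and 7 of 14 were called higher, near the 44.2% of all genes in that fit.

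**Figure D5:**
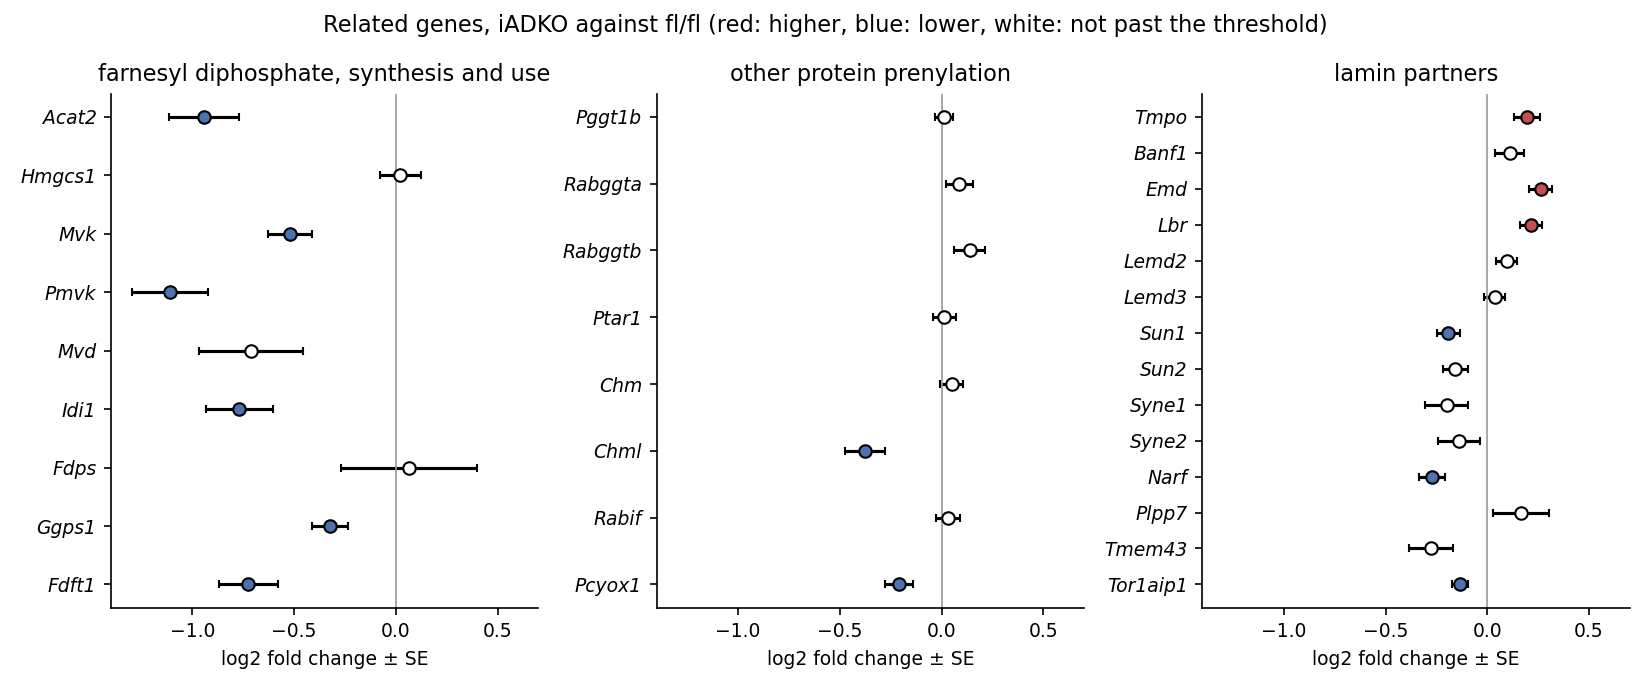
Log2 fold changes of iADKO against fl/fl under TMM (x axes) with standard errors for the genes of farnesyl diphosphate synthesis and use, other protein prenylation and lamin partners, filled red for genes called higher, blue for lower and white for genes not past the threshold. In the left panel *Pmvk* lies lowest at -1.11 and *Fdps* highest at 0.06, while with library totals alone the blue genes *Sun1* and *Tor1aip1* at the right lie above 0.

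The tissue also differed in markers of its cell types. Of all genes, 14.1% were called higher and 16.3% lower under TMM, and 44.2% and 7.62% with library totals alone. Adipocyte markers were called lower in 8 of 8 cases (7 of 8 with library totals alone), and 7 or 8 in the fits that left out a mouse. Their summed level was 17960 to 27890 CPM in fl/fl and 11280 to 19810 CPM in iADKO. *Adipoq*, the adiponectin gene whose promoter drives Cre, fell from 2139 ± 294.9 to 1276 ± 263.4 CPM (log2 fold change -0.75, edgeR adjusted p = 0.00155). Macrophage markers were called higher in 5 of 8 cases (8 of 8 with library totals alone), and 4 to 6 in the fits that left out a mouse. Their sums were 2023 to 5258 CPM in fl/fl and 3056 to 5268 CPM in iADKO. Proliferation markers, which stand beside the *Lmnb1* result, were called higher in 7 of 10 cases (10 of 10 with library totals alone). In the fits that left out a mouse, 5 to 9 were called higher. Their sum was 76.9 to 109 CPM in fl/fl and 106 to 144 CPM in iADKO, with 5 of 6 iADKO mice above every fl/fl mouse. *Pcna*, a replication factor gene, rose from 41.0 ± 3.84 to 53.3 ± 3.92 CPM (edgeR adjusted p = 0.00133). The part of any of these shifts in the values of the lamin and enzyme genes was not tested.

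Markers of other cells differed too, in part. The same shares of all genes stand beside these counts, 14.1% higher and 16.3% lower under TMM. B and T cell markers had a median log2 fold change of 0.67, and 3 of 8 were called higher under TMM, 1 to 4 in the fits that left out a mouse and 8 with library totals alone (sums of 39.5 to 71.9 CPM in fl/fl and 58.2 to 96.2 CPM in iADKO). Epithelial markers had the highest median, 1.11, at low levels (sums of 11.6 to 32.5 and 22.8 to 136 CPM). Of these, 2 of 5 were called higher, and 0 of 5 without any 1 of fl/fl replicates 1, 2, 4, 6 and 7 or iADKO replicates 3, 5 and 6 by edgeR. Without iADKO replicate 6 the epithelial median was 0.62. Endothelial markers were called lower in 2 of 6 under TMM, and with library totals alone 1 was lower and 2 were higher (sums of 723 to 995 and 733 to 857 CPM). No fibroblast and progenitor marker (5984 to 9020 and 5397 to 8858 CPM), mesothelial marker (312 to 651 and 280 to 755 CPM) or skeletal muscle marker (17.0 to 354 and 10.7 to 197 CPM) was called by edgeR under TMM with all mice. With library totals alone, 5 of 8 fibroblast and progenitor markers and 1 of 5 mesothelial markers were called higher, beside 44.2% of all genes. Under TMM, 2 fibroblast and progenitor markers were called higher without iADKO replicate 6 and 1 without fl/fl replicate 5, and 1 mesothelial marker without fl/fl replicate 2 or 5. No marker of any list stayed under 0.1 CPM in all mice.

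Some of the 8 genes share exon bases with a neighbour, and whether strand was used in counting is not given in the sources used here. *Rce1* shares 395 bases, 11.1% of its exon length, with *Pcx* on the opposite strand. *Pcx*, which encodes pyruvate carboxylase, was at 2352 ± 453.1 CPM in fl/fl and 898.8 ± 242.6 in iADKO, far above *Rce1*, so its reads could enter the *Rce1* count if strand was not used. *Lmnb1* shares 466 bases (12.9%) with *Marchf3*, also on the opposite strand, which was at 14.6 ± 3.49 and 11.3 ± 1.47 CPM and not called (adjusted p = 0.0728). *Icmt* shares 1371 bases (21.9%) with *Rnf207*, at 0.320 and 0.700 CPM, and *Fntb* 370 bases (9.02%) with *Churc1* on its own strand, at 3.11 and 3.08 CPM. *Icmt* also shares 2012 bases (32.1%) with *Gm70210*, and *Lmnb2* shares 802 (17.5%) with *Gm66154* and 533 (11.6%) with *Gm66160*. These 3 noncoding genes lie on the opposite strand and were not in the count table, so their levels are not known. Smaller overlaps with other noncoding genes are not listed. *Lmna* and *Fnta* share no exon base with another gene.

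After the genotype means were subtracted, the genes varied together only in part over the 13 mice. *Lmna* ran with *Rce1* (Pearson's r = 0.76, Spearman's rho = 0.76) and *Lmnb2* (r = 0.71, rho = 0.63), and *Icmt* with *Fntb* (r = 0.65, rho = 0.65). *Lmna* and *Lmnb1* did so little (r = 0.18, rho = 0.04), as did the subunit genes *Fnta* and *Fntb* (r = 0.16, rho = 0.16). The genes most like *Lmna* in this measure, among those that averaged 3 or more in log2 CPM, were *Map7d1* (r = 0.89, rho = 0.92), *Sparc* (r = 0.89, rho = 0.93) and *Nup50* (r = 0.87, rho = 0.85). *Icmt* was closest to *Qpctl* (r = 0.94), *Ripk2* (r = 0.93) and *Bag6* (r = 0.90), and *Fnta* to *Hebp1* (r = 0.93), *Cdk16* (r = 0.93) and *Mrpl55* (r = 0.93). *Lmnb1* was close to *Ppan* (r = 0.85, rho = 0.67) and *Mcmbp* (r = 0.82, rho = 0.51), and *Lmnb2* to *Jund* (r = 0.91), *Ing1* (r = 0.85) and *Ranbp3* (r = 0.85). *Fntb* was closest to *Tyw1*, *Afg3l1* and *Reep6* (each r between 0.90 and 0.91), *Rce1* to *Tpgs1*, *Lrrc14* and *Ggps1* (0.89, 0.87 and 0.85), and *Zmpste24* to *Zfp763*, *Mtpap* and *Tmem168* (0.79, 0.77 and 0.75). These are descriptions of the same libraries, which share their depth and cell makeup, and the highest of so many values are large by selection.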

How the data were processed

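Whole pmWAT was profiled by strand-specific, paired-end mRNA sequencing in 7 fl/fl and 6 iADKO mice, 1 library each, with groups and replicate numbers as the labels give them. The authors deposited raw counts per Ensembl gene, without normalization, and log2 values made from them by the regularized log (rlog) of DESeq2. FastQC 0.12.1, STAR 2.7.11a and mm39 are named by the submitters; the counting tool and gene annotation are not given in the sources used here. The authors' tests between genotypes were not used.

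In R 4.3.3, edgeR 4.0.16 was used with filterByExpr (16753 of 33618 genes), TMM and the robust quasi-likelihood test with genotype as the only term, Benjamini-Hochberg adjustment over all genes tested and a threshold of 0.05. Log2 CPM used a prior count of 2. The exact permutation test compared mean log2 CPM over all splits into 7 and 6 mice. Exon lengths, overlaps and sequences came from GRCm39 with GENCODE vM39, in which 33184 identifiers were found. The fit was tested on simulated data with changes larger than those of the 8 genes, which does not show how it does at changes of their size. Each library came from a different mouse, and total counts of 18854223 to 19776491 gave 199 to 435 reads for the B-type lamins and 1452 to 2333 for *Lmna*. Errors are the spread between mice, counting error included. Between libraries of 1 genotype, chi-square over its degrees of freedom was 8.16 to 88.8, far above counting noise, so none was a copy.

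Besides the 8 genes, the text names genes of the pathway lists that were called or lay at the ends of a list, up to 3 markers per cell type by mean CPM, and the 3 genes most like each of the 8. Some single-gene results and sequences are not reported here, and the count and median of the farnesyl diphosphate list leave out 1 such gene. *Adipoq* was added since its promoter drives Cre, *Hmgcs1*, *Fdps* and *Mvd* as the uncalled genes of their list, and neighbours for their overlap. The 8 genes and all lists were chosen with earlier results of these data known. Alternatives were DESeq2 size factors, library totals alone, DESeq2 1.42.0 (Wald test), no filter, a minimum of 10 counts per sample, a block for the replicate number or for the run of library numbers, limma 3.58.1 on the rlog values, the canonical length, and each mouse left out.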

Additional observations from a re-analysis of the deposited data

Results flagged for a closer look

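In 16 groups (8 genes in 2 genotypes), the highest and lowest mouse were screened for a gap to the next mouse that is wide against the range of the group, which chance gives in about 1 group in 20. *Lmnb1* in iADKO replicate 2, at 20.3 CPM, lay apart from the other iADKO mice (gap 0.684 of the range, limit 0.625 for 6 mice). Without this mouse *Lmnb1* was still called, as it was without any other. *Fnta* in fl/fl replicate 5, at 61.9 CPM, lay below the other fl/fl mice (gap 0.602 of the range, limit 0.568 for 7 mice). Without it the log2 fold change of *Fnta* went from -0.16 to -0.19.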

How the results depend on the processing

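Directions of *Lmna*, *Lmnb1* and *Lmnb2* were kept in every refit across all genes. *Icmt* and *Fntb* kept a negative sign, but with library totals alone both lay within their standard error of 0. In that fit *Fntb* was at -0.019 (standard error 0.086), and the standard error of *Icmt* was 0.046. Within-run values turned the direction of *Fntb*. With library totals alone, 8673 genes were called (7397 higher), and log2 fold changes were 0.40 for *Lmna* (adjusted p = 0.00101), 0.39 for *Lmnb2* (0.00217), 0.17 for *Zmpste24*, 0.045 for *Fnta*, 0.19 for *Rce1* and -0.00016 for *Icmt*, all genes having shifted together. With no filter, which tests more genes (4005 called), *Fnta* was at -0.17 (adjusted p = 0.0624). Other fits called 5064 to 5679 genes. With the run of library numbers as a block, 54 genes were called (40 higher, 53 shared with the 5104), and *Lmnb1* was at 0.45, *Icmt* at -0.17, *Fnta* at -0.11 and *Rce1* at 0.063; its part in the results was not tested. Within libraries 722 to 727, *Lmnb2* was at 0.037, *Zmpste24* at 0.049, *Fnta* at -0.027 and *Fntb* at 0.056, and within 747 to 750, *Lmnb1* was at 0.61, *Lmnb2* at 0.44, *Zmpste24* at -0.10 and *Fntb* at -0.44.

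Same-numbered samples did not deviate together in every pair (correlations -0.0265 to 0.217). The mean was 0.107 for same-numbered pairs and -0.02 for other pairs. The labels name no pairing, and the numbers were not taken to pair the mice. With the replicate number as a block and without fl/fl replicate 7, 4833 genes were called (4257 shared), *Fnta* was at -0.15 (adjusted p = 0.084), and no other of the 8 calls changed.

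Leaving out each mouse gave 3998 to 6604 genes, and log2 fold changes of 0.15 to 0.24 for *Lmna* (called without fl/fl replicate 1, adjusted p = 0.0411, or iADKO replicate 6, adjusted p = 0.0208), 0.30 to 0.38 for *Lmnb1*, 0.13 to 0.22 for *Lmnb2*, -0.19 to -0.15 for *Fnta*, -0.28 to -0.17 for *Fntb*, -0.22 to -0.18 for *Icmt*, -0.05 to -0.02 for *Zmpste24* and -0.058 to 0.0059 for *Rce1*, which turned without iADKO replicate 1 (0.0016) or 6 (0.0059).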
